A study of Mus musculus with 6 samples.

Results

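The 43 genes described here make, spend and regenerate glutathione and thioredoxin, the small thiols that keep cells reduced, together with the transcription factor NRF2, its inhibitor KEAP1 and enzymes that NRF2 induces. The set is a fixed list of symbols, sorted by role. A gene was measured where the array annotation gave a probe set naming it alone, and the brightest such probe set stood for it. This gave 39 of the 43 genes, among 19936 genes on the array. Ggt1, Prdx5, Prdx6 and G6pdx were not analysed here. The genes fell into 5 groups by role, with 8 measured genes of glutathione synthesis, recycling and breakdown, 6 glutathione peroxidases, 9 glutathione transferases, 10 genes of the thioredoxin system and peroxiredoxins, and 6 in the NRF2 group.

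The tissue was the colon epithelium of C57BL/6J mice, all male and 8 weeks old, and its transcripts were read on Affymetrix arrays. The wild type group had 3 arrays, and 3 came from mice labelled Sel1L-delta-IEC, in which exon 6 of Sel1L, flanked by loxP sites, was deleted by Cre under the villin-1 promoter, which is active in intestinal epithelial cells of both small and large bowel. Sel1L is the partner of the ubiquitin ligase HRD1 in the degradation of misfolded proteins of the endoplasmic reticulum (ER). The labels do not say whether each array stands for 1 mouse or a pool, and p-values therefore measure the spread between these arrays, which may be technical. The samples are bulk tissue, so fewer cells of a type and less RNA per cell cannot be told apart.

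Levels are RMA log2 values, in which a difference of 1 is a doubling, and changes are knockout minus wild type with limma's standard error (SE). A gene was called at a Benjamini-Hochberg adjusted p under 0.05 over all genes. Sel1l stood at 9.45, 9.67 and 9.54 in wild type and at 8.70, 9.06 and 8.66 in the knockout, so that the genotypes did not overlap. It fell by 0.74 ± 0.11 on the log2 scale (limma adjusted p = 0.018), and which exons its probe set reads was not determined. The Sel1l call was lost when replicate 1 or 2 of wild type, or replicate 1 or 3 of the knockout, was left out (adjusted p = 0.055 to 0.088). Without moderation of the variance, none of the redox, stress and Sel1l calls named here was kept, Sel1l included (adjusted p = 0.10 to 0.26). The array medians ran from 6.32 to 6.36. All 10 epithelial identity markers lay above that level, at means of 9.60 to 13.54, and limma called none. An unadjusted p under 0.05 was found for 4 of them, against 13.3% of all genes. Of these, Epcam, Cdh1 and Cldn7 were lower in the knockout and Cdx2 was higher. Of 8 absorptive colonocyte markers 3 were called, all lower, and 6 were lower at an unadjusted p under 0.05. The mean of the 8 was 11.28 to 11.50 in wild type against 10.84 to 11.03 in the knockout. In the lists for macrophages, T cells, B cells, fibroblasts, smooth muscle, endothelium and red cells no marker was called or had an unadjusted p under 0.05, and most lay below the array median. In the neutrophil and small intestine lists 1 marker each was called, Ly6g and Rbp2, both lower. Of the 7 neutrophil markers 5 had a change above 0, and Ly6g was the only 1 with a mean above the array median. Of the 11 small intestine markers 5 had a change above 0 and 6 below. Wild type array 3 stood apart from its group in stress genes. Over 16 targets and members of the ATF4-CHOP stress pathway its mean deviation from the wild type mean was 0.21, against -0.16 and -0.044 on the other wild type arrays and 0.93 to 0.96 on the knockout arrays, and calls of named genes that turn on that array are given with and without it.

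Glutathione is built from glutamate, cysteine and glycine. Glutamate-cysteine ligase, made of the Gclc and Gclm products, sets its rate, and glutathione reductase (Gsr) and thioredoxin reductases return the oxidised forms to use with NADPH. Under oxidants or electrophiles NRF2 (Nfe2l2) escapes KEAP1 and binds antioxidant response elements near Gclm, Txnrd1, Nqo1, Hmox1 and other genes. ER stress reaches the same chemistry by another route, since ATF4 and CHOP, made under the PERK kinase, induce the cystine transporter gene Slc7a11 and Chac1, whose product cleaves glutathione.

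Of the 39 measured genes, 1 was called. Mgst1, a membrane-bound glutathione transferase, fell in the knockout. That is 2.56% of the genes, beside 1.63% of all genes on the array called in either direction and 0.712% called lower. None was called higher, beside 0.918% of all genes, while 5 had an unadjusted p under 0.05 in that direction, as had 7.72% of all genes. In either direction 7 genes, or 17.9%, had an unadjusted p under 0.05, against 13.3% of all genes. The genotypes did not overlap in 11 genes, or 28.2%, against 19.4% of all genes, and 8 of the 11 were higher in the knockout, as were 2276 of the 3867 such genes on the whole array (11.4% of all genes).

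Most of the genes differed little. The change was smaller than 0.15 in size in 29 of 39 genes, and in 15872 of all 19936. The median change was -0.012, against 0.019 over all genes, with 17 genes above 0 and 22 below. These counts were 19 and 20 after quantile normalization and 15 and 24 after median centring. The SE of a change ran from 0.056 to 0.36 among the genes, the largest being that of Chac1.

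**Figure D1:**
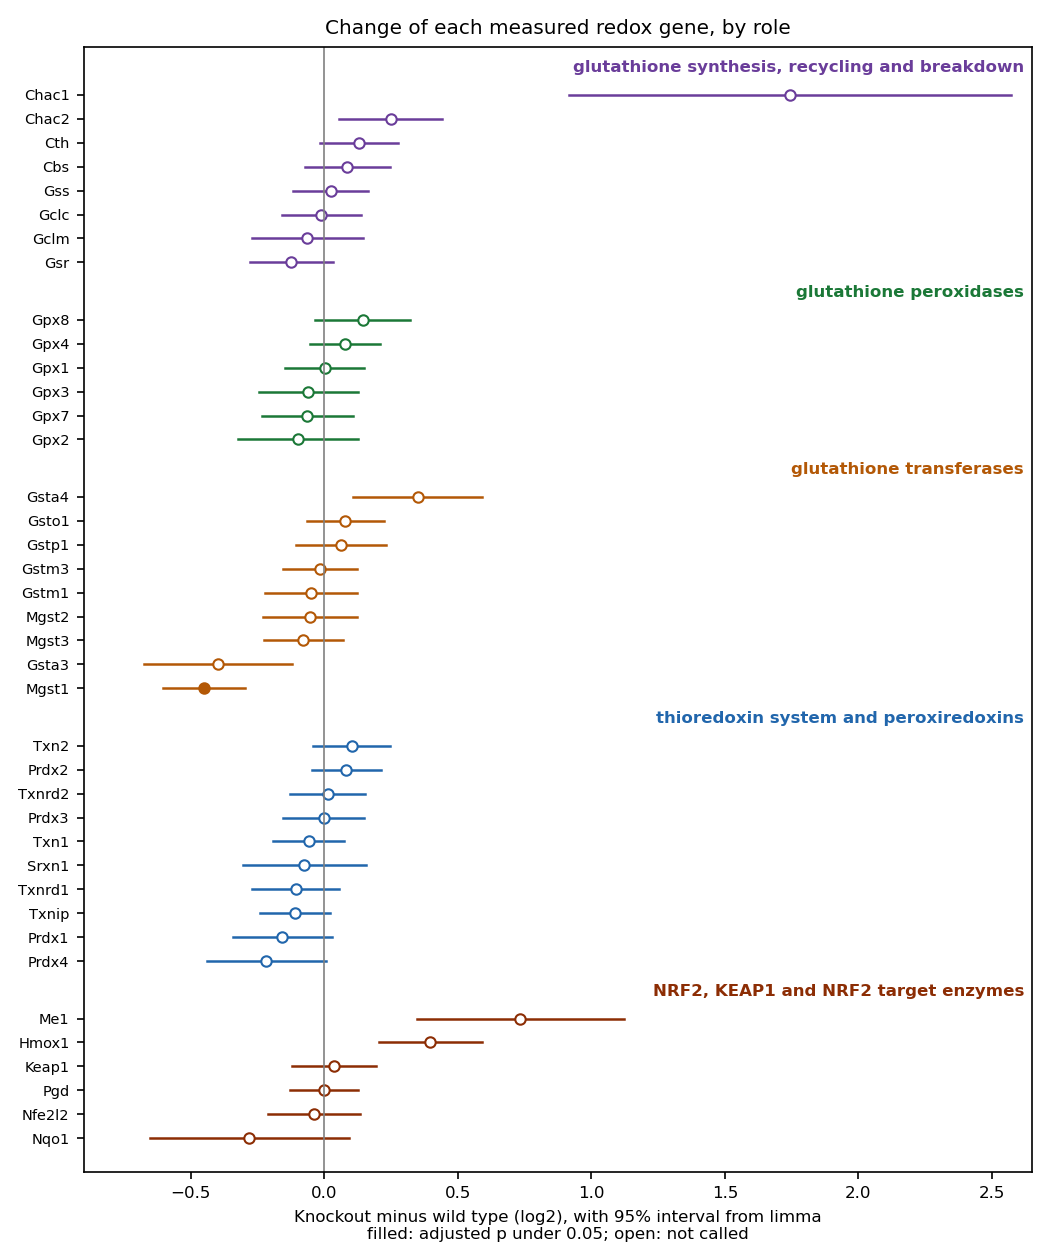
Knockout minus wild type (log2, horizontal axis) for each of the 39 measured redox genes, with the 95% interval from limma, grouped by role; filled points were called at an adjusted p under 0.05. Mgst1 is the filled point at -0.45, Chac1 lies farthest to the right at 1.74 with the widest interval, and 29 points lie within 0.15 of 0.

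Among genes that make and break down glutathione, the breakdown enzyme gene Chac1 had the largest difference of all 39, and the rate-setting ligase genes overlapped between genotypes. Chac1 encodes a gamma-glutamylcyclotransferase that cleaves glutathione in the cytosol. Chac1 stood at 7.20, 7.07 and 8.57 in wild type and at 9.02, 9.67 and 9.38 in the knockout. The knockout arrays were all higher, but the third wild type array lay closer to them than to its own group. The difference was 1.74 ± 0.36, or 3.35-fold, and missed the threshold (limma adjusted p = 0.062, 95% interval 0.91 to 2.57). Without wild type array 3 the difference was 2.22 and was called (adjusted p = 0.0023), and with any other array left out the adjusted p was 0.13 to 0.19. It was also called after median centring (adjusted p = 0.0496), without the dimmest 25% or 50% of genes (0.046 and 0.032) and with an intensity trend in the variance prior (0.024). With a robust prior the adjusted p was 0.134, and without moderation of the variance it was 0.33.

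Chac1 was the only measured gene of the set with the core of the C/EBP-ATF response element, the site that ATF4 binds with a C/EBP partner, in the 250 bases before its annotated start. The core was searched as TGATGNAA on both strands and was found in 3.45% of 32851 such windows of all genes and in 1 of 43 windows of the set. Of the 39 genes, 34 had a window in the RefSeq table (GRCm38.p6), and Gclc, Gsr, Cth, Gsta4 and Hmox1 had none. The stretch before Chac1 is shown because the gene had the largest difference, with that of the cystine transporter gene Slc7a11, which stands outside the 43 genes, for comparison. The core is in capitals, at positions -193 to -186 from the start in Chac1 and at -66 to -59 and -47 to -40 in Slc7a11. The Chac1 match and the second Slc7a11 match read on the opposite strand. A match is a description of letters, and binding was not measured.
Chac1, chr2:119350992-119351241, plus strand: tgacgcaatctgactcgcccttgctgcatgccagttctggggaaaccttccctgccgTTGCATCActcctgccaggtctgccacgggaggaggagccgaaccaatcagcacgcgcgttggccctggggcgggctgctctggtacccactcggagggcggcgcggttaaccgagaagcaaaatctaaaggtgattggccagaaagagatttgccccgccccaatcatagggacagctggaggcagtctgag
Slc7a11, chr3:50443623-50443709, minus strand: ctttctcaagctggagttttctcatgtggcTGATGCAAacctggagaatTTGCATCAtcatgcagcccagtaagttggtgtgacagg

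Slc7a11 imports the cystine from which glutathione is made, and its values had the same shape as those of Chac1. Slc7a11 stood at 6.02, 6.48 and 7.63 in wild type and at 8.68, 8.91 and 8.62 in the knockout, again with wild type array 3 nearest to the knockout. The gene is 1 of the 16 stress pathway genes over which that array was described above. Slc7a11 rose by 2.03 ± 0.34 (limma adjusted p = 0.028) and by 2.49 without wild type array 3 (adjusted p = 0.00093). With any other array left out it was not called (adjusted p = 0.065 to 0.11), nor with a robust prior (0.069) or without moderation (0.26).

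Chac2, the constitutive relative of Chac1, was 7.55, 7.87 and 7.77 in wild type and 7.97, 7.99 and 7.98 in the knockout. The knockout arrays lay close together and above every wild type array, by 0.25 ± 0.085 on average, and Chac2 was not called (limma adjusted p = 0.25). Without wild type array 1 the difference was 0.16.

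The ligase genes overlapped between genotypes. Gclc, the catalytic subunit, read 10.22, 10.12 and 10.05 in wild type and 10.16, 10.11 and 10.09 in the knockout. Its change was -0.012 ± 0.065 with a 95% interval of -0.16 to 0.14, and its sign turned after quantile normalization (0.0093). Gclm, the modifier subunit, read 9.81, 9.80 and 9.51 against 9.70, 9.64 and 9.59, a change of -0.064 ± 0.091 with an interval of -0.27 to 0.14. The lowest value of the 6 was that of wild type array 3. The change of Gclm was -0.16 without that array, -0.011 without wild type array 1 and -0.016 without wild type array 2, and it was called in none of these fits. Gss, which adds glycine in the last step, differed by 0.023 ± 0.061.

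The transsulfuration enzymes, which make cysteine from homocysteine, lay slightly higher in the knockout without being called. Cth was 9.81, 9.81 and 9.75 in wild type and 9.97, 9.95 and 9.83 in the knockout, with no overlap, at 0.13 ± 0.063 (limma adjusted p = 0.44). Cbs differed by 0.085 ± 0.069 and its genotypes overlapped. Gsr, which regenerates glutathione, was 10.07, 10.11 and 10.15 in wild type and 10.06, 9.88 and 10.02 in the knockout, at -0.12 ± 0.068 (adjusted p = 0.50). Its groups did not overlap, by a gap of 0.0090 between the nearest arrays, and without knockout array 2 the change was -0.070.

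The glutathione peroxidases reduce hydrogen peroxide or lipid peroxides with glutathione, except for Gpx7 and Gpx8, which sit in the ER and work with protein disulfide isomerases. None of the 6 was called and none had an unadjusted p under 0.05, with changes from -0.098 to 0.14 and a median of -0.030. Gpx2, the epithelial form of the gut, read 11.83, 11.87 and 12.04 in wild type and 11.92, 11.62 and 11.90 in the knockout, a change of -0.098 ± 0.098. Gpx1, the general cytosolic form, differed by 0.0010 ± 0.065, with an interval of -0.15 to 0.15. Gpx4, which repairs lipid peroxides in membranes and guards against ferroptosis, was higher on each knockout array, at 9.06, 8.99 and 9.06 against 8.99, 8.95 and 8.94, by 0.077 ± 0.057 (limma adjusted p = 0.63). A second Gpx4 probe set differed by 0.048, and its genotypes overlapped. The plasma form Gpx3 differed by -0.060 ± 0.081. Gpx3, Gpx7 and Gpx8 had means below the array median on both genotypes, and their signal over background was not measured.

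Glutathione transferases attach glutathione to electrophiles, and this group held the only call. It was also the only group with genes at an unadjusted p under 0.05 in both directions, 1 higher and 2 lower. Mgst1 encodes a trimeric transferase of the ER and outer mitochondrial membranes that also reduces lipid peroxides. It read 9.48, 9.61 and 9.46 in wild type and 9.07, 9.01 and 9.12 in the knockout. The genotypes did not overlap, and the gap between them, 0.34 from the lowest wild type to the highest knockout array, exceeded the spread within either group. Mgst1 fell by 0.45 ± 0.067 on the log2 scale, to a level 1.37-fold lower (limma adjusted p = 0.018, 95% interval -0.61 to -0.30). The call was lost without replicate 1 or 2 of wild type (adjusted p = 0.061 and 0.065) and of the knockout (0.080 and 0.072). It held without replicate 3 of wild type (0.031) or of the knockout (0.043). It was lost with a block on replicate number (0.057). The change was -0.48 to -0.40 in these fits. The absorptive colonocyte markers named above were lower on the same arrays, with a median change of -0.47, and their part in the result was not tested.

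The alpha class transferases measured, Gsta3 and Gsta4, had changes of opposite sign, and neither was called. Gsta3 was 7.30, 6.91 and 7.24 in wild type and 6.68, 6.63 and 6.95 in the knockout, where knockout array 3 exceeded wild type array 2. Its change was -0.40 ± 0.12 (limma adjusted p = 0.19). Gsta4, which clears the lipid peroxidation product 4-hydroxynonenal, was 9.39, 9.32 and 8.996 in wild type and 9.65, 9.48 and 9.61 in the knockout, with no overlap, at 0.35 ± 0.11 (adjusted p = 0.19). Without wild type array 3, the lowest, the Gsta4 difference was 0.23. Whether Gsta3 and Gsta4 changed differently was not tested.

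The remaining 6 transferases, Gstm1, Gstm3, Gsto1, Gstp1, Mgst2 and Mgst3, overlapped between genotypes, with changes from -0.079 (Mgst3) to 0.078 (Gsto1). Transferases of the alpha, mu and pi classes have close paralogs, so their probe sets may read more than 1 of them. Further probe sets that name Gstp1 together with another gene were left out, and a second Gstm3 probe set differed by -0.0090, beside -0.016 for the one used.

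**Figure D2:**
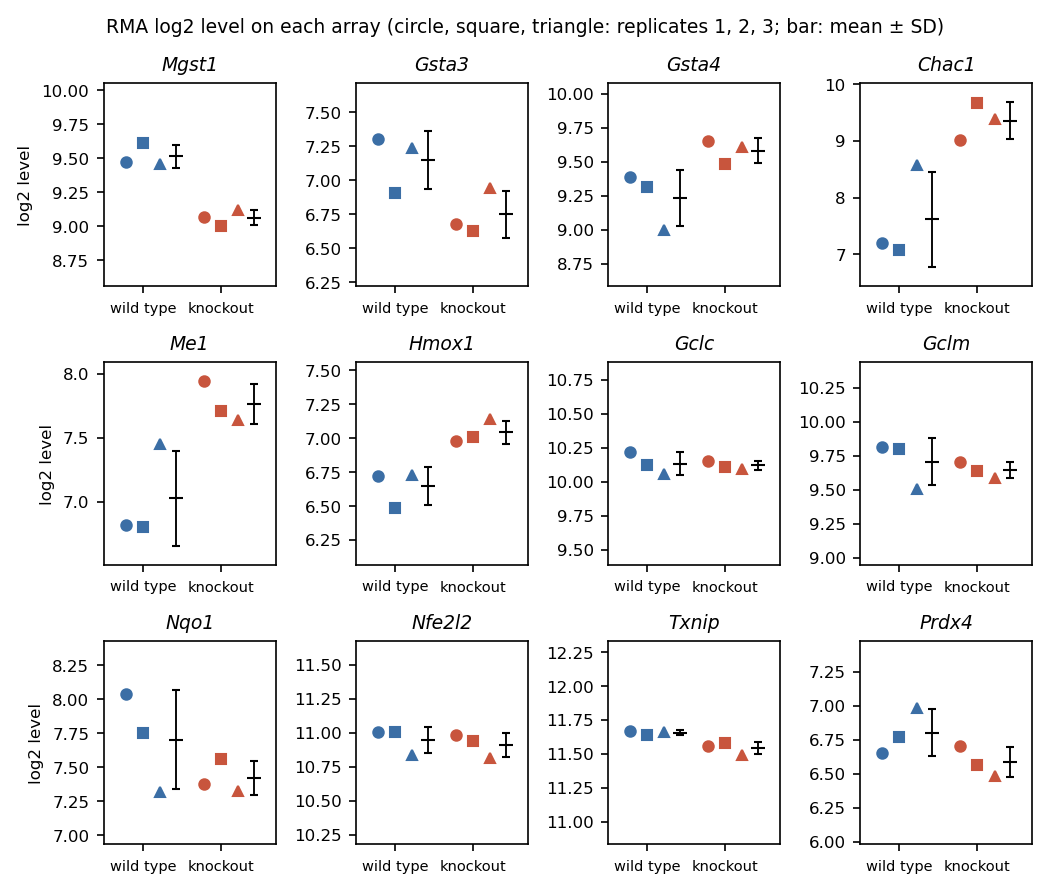
RMA log2 level (vertical axis, whose range differs between panels) of 12 redox genes on the 3 wild type arrays (blue) and 3 knockout arrays (red); circles, squares and triangles are replicates 1, 2 and 3, and the bars are mean ± SD. Mgst1 separates by 0.34 between the nearest arrays, wild type array 3 of Chac1 lies at 8.57 near the knockout arrays, and Gclc, Gclm and Nfe2l2 overlap.

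Thioredoxin reduces disulfides in proteins, thioredoxin reductases recharge it, and peroxiredoxins use it to remove peroxide. None of the 10 genes was called and none had an unadjusted p under 0.05. The median change was -0.067, with 3 genes above 0 and 7 below. Cytosolic Txn1, at 13.31 ± 0.041 in wild type and 13.25 ± 0.034 in the knockout (SD, n = 3 each), differed by -0.059 ± 0.058. Its reductase Txnrd1, a selenoprotein and NRF2 target, differed by -0.11 ± 0.072. Txnip, which binds and inhibits thioredoxin, was 11.67, 11.64 and 11.66 in wild type and 11.56, 11.58 and 11.50 in the knockout. The groups did not overlap and the difference of -0.11 ± 0.057 was not called (limma adjusted p = 0.46). Srxn1, which restores overoxidised peroxiredoxins, differed by -0.075 ± 0.10 and was lowest on wild type array 3, at 9.24.

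The mitochondrial members differed by 0.10 ± 0.063 for Txn2, 0.012 ± 0.062 for Txnrd2 and -0.0027 ± 0.066 for Prdx3. The cytosolic peroxiredoxins Prdx1 and Prdx2 differed by -0.16 ± 0.081 and 0.081 ± 0.056. Prdx2 did not overlap, at 10.51, 10.53 and 10.56 in wild type against 10.65, 10.61 and 10.58. Second probe sets of Prdx1 and Prdx2 gave -0.15 and 0.092, and that of Prdx2 overlapped, with wild type array 3 above knockout array 3.

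Prdx4, the peroxiredoxin of the ER lumen, which turns peroxide from oxidative folding into disulfides, had a lower mean in the knockout and was not called. It read 6.65, 6.77 and 6.99 in wild type and 6.71, 6.56 and 6.49 in the knockout. The highest value was that of wild type array 3 and the groups overlapped. Its change was -0.22 ± 0.098 (limma adjusted p = 0.39), with a 95% interval of -0.44 to 0.0063, and without wild type array 3 it was -0.13. The other ER peroxidase genes, Gpx7 and Gpx8, differed by -0.064 ± 0.074 and 0.14 ± 0.078.

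In the NRF2 group no gene was called, and changes ran from -0.28 for Nqo1 to 0.73 for Me1. Nfe2l2 read 11.01, 11.01 and 10.84 in wild type and 10.98, 10.94 and 10.81 in the knockout, a change of -0.038 ± 0.075 with a 95% interval of -0.21 to 0.13. Keap1 read 8.03, 7.88 and 8.01 against 7.93, 8.04 and 8.06, at 0.035 ± 0.068 with an interval of -0.12 to 0.19. NRF2 is controlled mainly as a protein, which was not measured here.

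Nqo1, the quinone reductase often used as a readout of NRF2, was 8.04, 7.75 and 7.32 in wild type and 7.38, 7.56 and 7.32 in the knockout. The wild type arrays spread more widely than the distance between the group means, and the change of -0.28 ± 0.16 was not called (limma adjusted p = 0.53). It was -0.47 without wild type array 3 (adjusted p = 0.11) and -0.11 without wild type array 1. Hmox1, the haem-degrading oxygenase, was 6.72, 6.49 and 6.73 in wild type and 6.98, 7.01 and 7.14 in the knockout. The groups did not overlap, and the difference of 0.40 ± 0.084 was not called (adjusted p = 0.066, 95% interval 0.20 to 0.59). It was called without the dimmest 25% or 50% of genes (adjusted p = 0.045 and 0.027) or with an intensity trend (0.041), and in none of the fits with an array left out (0.086 to 0.18).

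Me1, the cytosolic malic enzyme that makes NADPH, was 6.82, 6.81 and 7.45 in wild type and 7.94, 7.71 and 7.64 in the knockout. As for Chac1, wild type array 3 lay between the other wild type arrays and the knockout arrays. The difference was 0.73 ± 0.17, or 1.66-fold, and was not called (limma adjusted p = 0.087). Without wild type array 3 it was 0.95 and was called (adjusted p = 0.0091), and with any other array left out the adjusted p was 0.16 to 0.26. It was also called without the dimmest 50% of genes (0.045) and with an intensity trend (0.041). A second Me1 probe set gave 0.79. Pgd, which makes NADPH in the pentose phosphate pathway, differed by -0.0011 ± 0.056, with an interval of -0.13 to 0.13.

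The core of the antioxidant response element, searched as TGACNNNGC on both strands, was found in the 250 bases before a start of 6 of the 34 genes with a window. By window this was 6 of 43, against 10.2% of the windows of all genes. The core can hold an AP-1 site, TGACTCA, so the motifs overlap. The 6 genes were Gclm, Gsta3, Mgst1, Nfe2l2, Prdx1 and Txnrd1. Mgst1 has 2 annotated starts and Txnrd1 has 3, with the match before 1 of them. The stretches are shown because the only called gene is among these 6. Capitals mark the core, on the opposite strand in all but Gsta3 and Nfe2l2.
Mgst1, chr6:138140441-138140509, plus strand: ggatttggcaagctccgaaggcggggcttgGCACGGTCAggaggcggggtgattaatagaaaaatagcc
Gclm, chr3:122245393-122245461, plus strand: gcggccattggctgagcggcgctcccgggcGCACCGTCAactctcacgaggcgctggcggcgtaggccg
Gsta3, chr1:21240434-21240502, plus strand: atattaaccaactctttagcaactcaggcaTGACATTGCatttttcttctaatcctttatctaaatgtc
Prdx1, chr4:116685436-116685504, plus strand: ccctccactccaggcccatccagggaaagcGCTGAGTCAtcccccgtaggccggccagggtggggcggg
Txnrd1, chr10:82859084-82859152, plus strand: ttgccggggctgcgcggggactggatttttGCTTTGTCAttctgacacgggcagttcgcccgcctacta
Nfe2l2, chr2:75704865-75704913, minus strand: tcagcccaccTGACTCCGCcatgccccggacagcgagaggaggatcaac

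Each of these 6 genes had a change below 0, from -0.45 in Mgst1 to -0.038 in Nfe2l2, with a median of -0.13. Only Mgst1 was called. The change was -0.40 ± 0.12 for Gsta3, -0.16 ± 0.081 for Prdx1 and -0.11 ± 0.072 for Txnrd1. It was smaller than its SE for Gclm (-0.064 ± 0.091) and Nfe2l2 (-0.038 ± 0.075). Among the 28 genes with a window and no match, 14 were below 0. Elements farther from a start were not searched. A gene without a match, such as the NRF2 target gene Nqo1 (-0.28), may therefore still have one. Gclc (-0.012), Gsr (-0.12), Cth (0.13), Gsta4 (0.35) and Hmox1 (0.40) had no window and were not searched. All 6 stayed below 0 after quantile normalization and median centring, and with array weights or mean probe sets. With an array left out they also did, except without knockout array 3, where 5 of 6 did and Nfe2l2 was at 0.012. The replicate block, the filters on dim genes, the trend and robust priors and no moderation leave a change as it is. No sign could turn in those fits. The other fits reuse the same arrays, so a sign that stayed is not separate support. The search was made after the values were known, and no test was made of the difference.

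Set side by side, the 5 groups had medians of -0.067 to 0.054. The means of the first, the transferase and the NRF2 group rested on 1, 1 and 2 genes. The median change was 0.054 for glutathione synthesis, recycling and breakdown, -0.030 for the peroxidases, -0.051 for the transferases, -0.067 for the thioredoxin group and 0.017 for the NRF2 group. On the knockout arrays the mean deviation from the wild type mean was 0.23 to 0.29 in the first group, against -0.050 to 0.094 on the wild type arrays. Leaving out Chac1 made these ranges 0.0096 to 0.080 and -0.030 to 0.021. In the NRF2 group the deviation was 0.11 to 0.16 against -0.067 to 0.059, and without Me1 and Hmox1 it was -0.11 to -0.017 against -0.12 to 0.12. For transferases it was -0.082 to -0.043 against -0.052 to 0.070, and without Mgst1 it was -0.028 to 0.0018 against -0.052 to 0.084. For the thioredoxin group it was -0.11 to -0.011 against -0.032 to 0.038. The peroxidases overlapped fully, at -0.075 to 0.055 against -0.020 to 0.027. Genes were trimmed here after their values were seen, as a description.

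**Figure D3:**
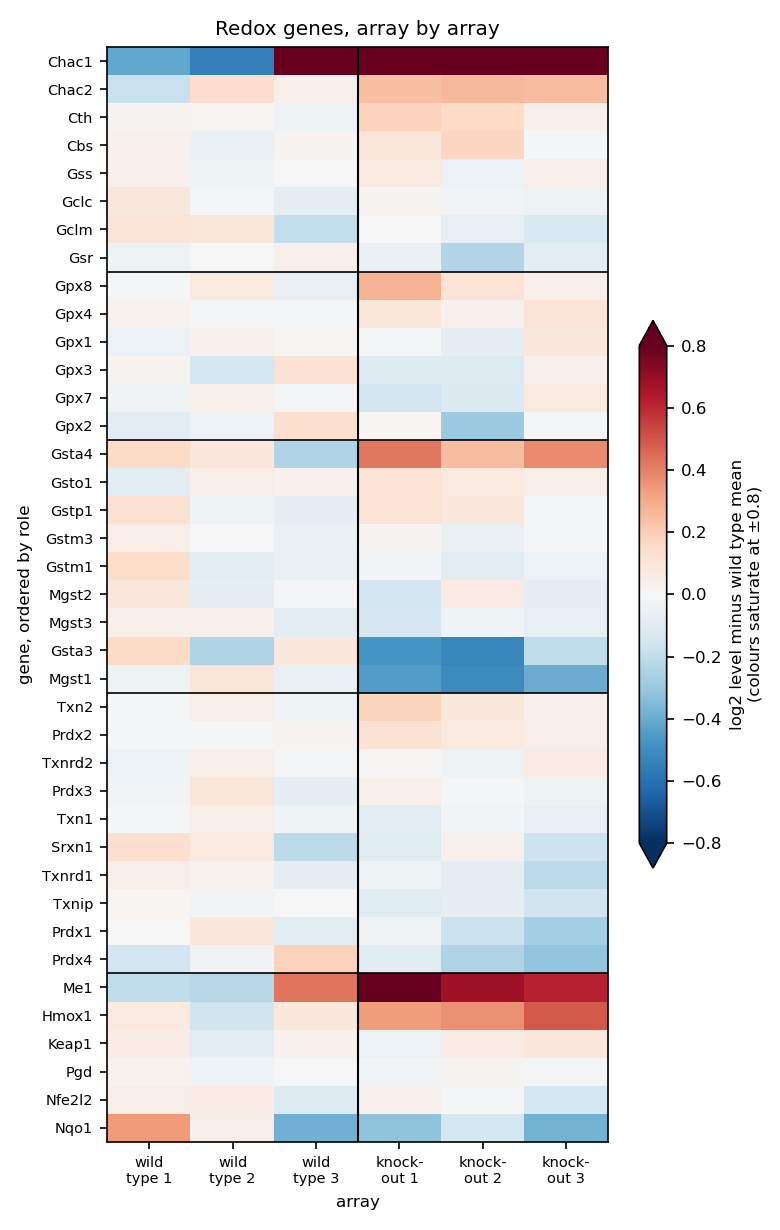
Log2 level minus the wild type mean (colour, saturating at 0.8 in size) for the 39 redox genes in rows, ordered by role and then by change, on the 3 wild type and 3 knockout arrays in columns. Chac1 and Me1 are raised on wild type array 3 as well as on the knockout arrays, Mgst1 is low on all 3 knockout arrays, and most rows are pale.

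The neighbours of these genes in the same pathways were counted from 9 further lists, 121 measured genes in all, of which 3 rose and 1 fell. Beside this, 0.918% of all genes on the array were called higher and 0.712% lower. Their median change was 0.035. Of 6 ER thiol oxidase genes, some of which pass electrons from folding proteins to oxygen, 2 rose and none fell. Ero1b, a partner of protein disulfide isomerase, rose by 0.73 ± 0.11 (limma adjusted p = 0.016), from 6.58, 6.52 and 6.35 to 7.32, 7.32 and 6.99. Qsox1, a sulfhydryl oxidase of the secretory pathway, rose by 0.46 ± 0.075 (adjusted p = 0.025). For Ero1a the difference was 0.50 ± 0.10 (adjusted p = 0.055), short of the threshold. Ero1a was called without wild type array 3, at 0.61 (adjusted p = 0.018), without the dimmest 25% or 50% of genes (0.038 and 0.024), with an intensity trend (0.017) and with array weights (0.0498). With any other array left out its adjusted p was 0.13 to 0.18. The calls of Ero1b and Qsox1 held when replicate 3 of either genotype was left out and were lost without any other array, with adjusted p of 0.051 to 0.079 for Ero1b and 0.092 to 0.11 for Qsox1. With a block on replicate number Qsox1 lost its call (0.072) and Ero1a gained one (0.044). Vkorc1l1 and Vkorc1, epoxide reductases of vitamin K, differed by 0.17 and -0.10.

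Slc7a11 was the only call among 29 other glutathione genes and among 21 other NRF2 targets, since it is in both lists. Its partner chain Slc3a2 differed by 0.34 ± 0.10 (limma adjusted p = 0.17), and by 0.46 with a call without wild type array 3 (adjusted p = 0.021). The theta transferase Gstt1 differed by -0.29 ± 0.073 (adjusted p = 0.12; with the dimmest 50% of genes left out, 0.049) and the dipeptidase Dpep1 by -0.22 ± 0.071 (adjusted p = 0.23). Among NRF2 targets the autophagy receptor gene Sqstm1 differed by 0.31 ± 0.067 (adjusted p = 0.068, and 0.013 to 0.042 in the 4 settings that called it, quantile normalization among them), the haem transporter gene Slc48a1 by 0.20 and the transketolase gene Tkt by -0.21. Of the 20 targets besides Slc7a11, 7 were above 0 and 13 below. None of 9 partners and regulators of NRF2 was called by limma. Nfe2l1, encoding the related factor NRF1, was the 1 gene there with an unadjusted p under 0.05, at 0.16 ± 0.057, followed by Maff (-0.17) and Rbx1 (0.10).

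Of 18 other selenoproteins and selenium genes 1 fell and none rose. Dio1, which encodes the type 1 deiodinase of thyroid hormone, fell by 0.55 ± 0.10 on the log2 scale (limma adjusted p = 0.040), from 8.52, 8.39 and 8.16 to 7.76, 7.94 and 7.73. Among the fits with an array left out, Dio1 was called without wild type array 3 (adjusted p = 0.021) and in none of the others (0.068 to 0.16). The selenium carrier gene Selenop differed by -0.54 ± 0.11 (adjusted p = 0.065), and the ER selenoprotein genes Selenos and Selenom by 0.37 ± 0.085 and 0.31 ± 0.071, neither called. Without wild type array 3, Selenop was called at -0.62 (adjusted p = 0.048) and Selenos at 0.45 (adjusted p = 0.032). Without the dimmest 50% of genes or with an intensity trend Selenop, Selenos and Selenom were all called (adjusted p = 0.021 to 0.041), and Selenop was also called after median centring (0.043) and without the dimmest 25% (0.047). The absorptive colonocyte markers were lower on the same arrays as Dio1 and Selenop, and their part was not tested.

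No gene was called in the lists of 13 other NADPH genes, 14 thioredoxin fold and methionine sulfoxide genes, 10 genes of transsulfuration and the methionine cycle, or 5 superoxide and peroxide enzymes, where 4, 2, 1 and 0 had an unadjusted p under 0.05. In the NADPH list Pgls (0.25), Tkt (-0.21) and Me2 (-0.22) had the smallest p, and H6pd, which makes NADPH in the ER lumen, differed by 0.28 ± 0.14. Without wild type array 3 H6pd differed by 0.44 and was called (adjusted p = 0.049), and without wild type array 2 it differed by 0.18. Nnt, the mitochondrial transhydrogenase, which is known to be disrupted in C57BL/6J mice, was 7.65 ± 0.025 in wild type and 7.67 ± 0.094 in the knockout (SD, n = 3 each). Msrb1, Sesn2 and Txnl4a led the thioredoxin fold list at 0.20, 0.27 and 0.13. Suox (0.30), Csad (-0.15) and Mat2b (0.14) led the transsulfuration list, and Sod1 (0.11), Park7 (0.084) and Sod3 (-0.080) the superoxide list. The stress factor genes Atf4 and Ddit3 rose, by 0.54 ± 0.066 and 0.79 ± 0.098 (limma adjusted p = 0.010 for each), and the Atf4 call was lost without knockout array 1 (0.052). Whether either acted on Chac1 or Slc7a11 here was not tested.

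**Figure D4:**
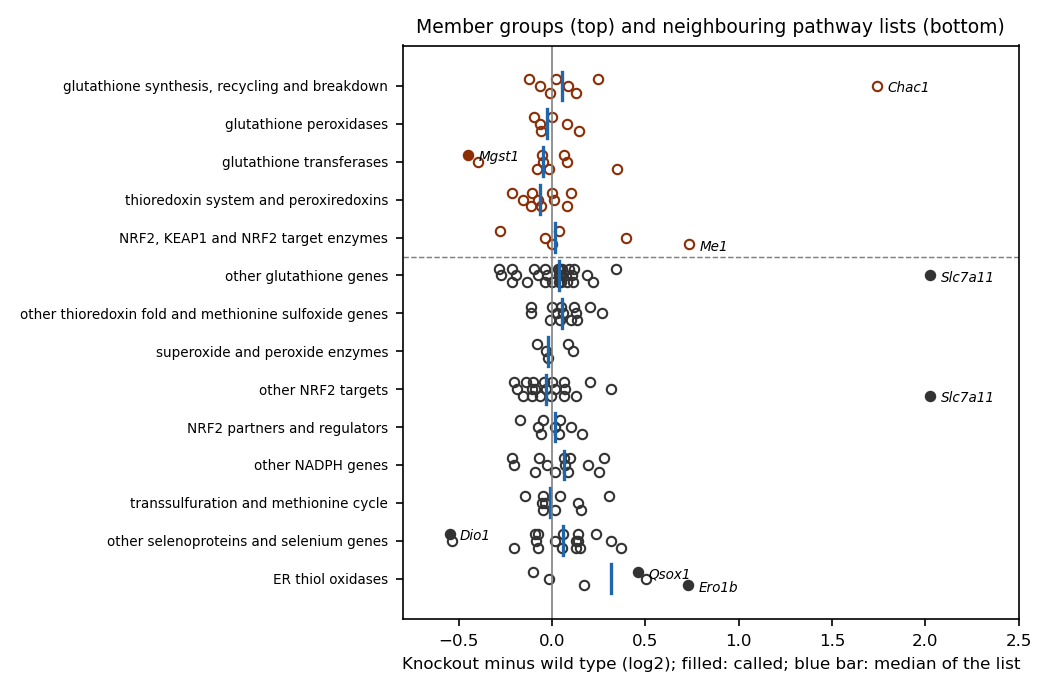
Knockout minus wild type (log2, horizontal axis) for every measured gene of the 5 redox groups (above the dashed line) and of 9 neighbouring lists (below it); filled points were called, labels name genes called or beyond 0.7 in size, and blue bars are list medians. Mgst1 is the 1 filled point above the line and Slc7a11, Dio1, Qsox1 and Ero1b are those below it, with Slc7a11 drawn in 2 lists.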

How the data were processed

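The authors deposited log2 values of 6 arrays in 1 table, and the submitters' processing notes name RMA. The log2 scale was read from the values, while software, probe set definition and build are not stated in the labels. RMA already normalizes between arrays, so the values were used as they stand. In the platform annotation 21789 of 35556 probe sets carried a single gene. The 1621 with several and the 12146 without any were excluded. Symbols were updated through the RefSeq table of GRCm38.p6, and the brightest probe set on average represented each of 19936 genes. Dim genes were kept.

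The genotype term was tested by lmFit and eBayes of limma 3.58.1 (R 4.3.3), two-sided, with Benjamini-Hochberg adjustment over all genes. On simulated data with 200 changed genes it recovered 93% of changes of 0.5 and 100% of changes of 1, and 7.66% of its calls were false, above the nominal rate. The simulated noise was independent and normal, with each gene's moderated SD taken as true. Recovery on the real arrays may be lower and was not measured. pandas 2.3.3 and matplotlib 3.10.9 under Python 3.11.15 made tables and plots. Alternatives were median centring, a replicate block, filters on the dimmest 25% or 50% of genes, quantile normalization, a trend or robust prior, array weights, mean probe sets, no moderation and each array left out. Promoter windows came from RefSeq. The genes and lists were chosen with earlier results of these data known. Given in full were called genes, the 8 next smallest p, and Chac1, Gclc, Gclm, Nqo1, Hmox1, Nfe2l2, Keap1, Txnip and Prdx4. From each neighbouring list came called genes and up to 3 others with the smallest p, besides Slc7a11 and Nnt. H6pd was named after its values were seen. Arrays number 3 a group, which limits precision, and no batch information was used.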

Additional observations from a re-analysis of the deposited data

How the results depend on the processing

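The 16 alternatives moved counts more than changes. The number of all genes called went from 325 to 598 without the dimmest 50% of genes, 614 with an intensity trend and 4 without moderation, and from 69 to 303 with an array left out. The number of redox genes called went from 1 to 0 with the replicate block, 2 after median centring, 3 without the dimmest 25% of genes, 4 without the dimmest 50% or with a trend, 0 without moderation, and from 0 to 3 with an array left out. With the replicate block Mgst1 (adjusted p = 0.057) and Qsox1 (0.072) lost their calls and Ero1a (0.044) gained one. Without moderation Mgst1 had an adjusted p of 0.14. Same-numbered arrays deviated together at r = -0.104, 0.151 and 0.153, and differently numbered arrays at -0.261 to 0.121. With 3 arrays a group these values cannot tell whether the numbers pair the arrays. In the neighbouring lists, calls among other glutathione genes (1) became 2 without the dimmest 50%, 0 with a robust prior or without moderation, and 0 to 2 with an array left out. Other NRF2 targets (1) became 2 after quantile normalization, without the dimmest 25% or 50% or with a trend, 0 with a robust prior or without moderation, and 0 to 1 with an array left out. Selenium genes (1) became 2 after median centring or without the dimmest 25%, 4 without the dimmest 50% or with a trend, 0 without moderation, and 0 to 3 with an array left out. ER thiol oxidases (2) became 3 without the dimmest 25% or 50%, with a trend or with array weights. They became 0 without moderation and 0 to 3 with an array left out, and other NADPH genes (0) became 0 to 1 with an array left out. The median change of the redox genes was -0.034 after median centring and -0.035 to -0.00014 with an array left out, and that of the transferases -0.062 to 0.0094. The cause was not tested.

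Signs turned only in uncalled genes near 0. After quantile normalization Gclc was at 0.0093, Txnrd2 at -0.0051, Prdx3 at 0.0067 and Pgd at 0.028. After median centring Gpx1 was at -0.021, Nnt at -0.0048 and Txnrd2 at -0.010, and with array weights Gpx1 was at -0.0013 and Prdx3 at 0.0027. With an array left out the ranges were -0.051 to 0.032 for Gclc, -0.093 to 0.012 for Nfe2l2, -0.011 to 0.074 for Keap1, -0.0010 to 0.057 for Gss, -0.043 to 0.038 for Gpx1, -0.095 to 0.022 for Gstm1, -0.044 to 0.0094 for Gstm3, -0.017 to 0.039 for Txnrd2, -0.040 to 0.045 for Prdx3, -0.016 to 0.014 for Pgd and -0.021 to 0.069 for Nnt. Genes below the array median, such as Gpx7 and Gpx8, are dim, and their signal over background was not measured.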
